A study of Mus musculus with 7 samples.

Results

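Chaperones were described in mouse CD8+ T cells given small extracellular vesicles (sEV) of either a leukemic or a healthy spleen. The set held 43 genes chosen by symbol from the 55367 genes of the count table. Of these, 19 encode cytosolic chaperones, 3 act in mitochondria, and 21 belong to the endoplasmic reticulum (ER). No measured value was used to choose them, although the selection was made with earlier results of these data known. All 43 passed the minimum of 5 counts per library on average that left 12623 genes for testing.

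The cells came from spleens of healthy mice carrying the Foxp3 YFP/cre allele, which both groups shared. The cells were sorted by flow cytometry. By the study's description of its CD8+ cultures, they were kept in wells coated with anti-CD3 with IL2 and CD28, which activates T cells, in both groups. The same description has CD8+ cells isolated with a negative selection kit, so how these cells were isolated is not certain. Cells of 3 libraries received LME-sEVs, isolated from spleens of Eμ-TCL1 mice with leukemia, in which TCL1 is driven in B cells. Cells of 4 libraries received HCME-sEVs from healthy spleens. Both treatments lasted 48 hours. Where nothing else is stated, mice were of both sexes and aged 8 to 10 weeks. A legend in the study gives the sizes of these groups the other way round, so every direction here rests on the sample labels. The sample annotation gives 100 μg/mL of sEVs for all 7 libraries, whereas the methods speak of the physiologic amount of each kind of spleen, so it is not certain that both groups received the same dose. Whether the libraries of a group came from separate animals is not stated, and p-values measure only the spread between these libraries.

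Chaperones bind proteins that are not yet folded and keep them from aggregating. In the cytosol, HSP70 proteins bind short stretches of a new chain with the help of J-domain proteins and exchange factors, HSP90 finishes the folding of kinases and receptors, and the ring-shaped TRiC chaperonin folds actin and tubulin. HSP60 and its lid HSP10 help proteins to fold inside mitochondria. The ER has its own HSP70 and HSP90, lectin chaperones that hold glycoproteins, and disulfide isomerases. When unfolded proteins build up in the ER, the sensors IRE1, ATF6, and PERK raise the expression of these genes, in part through the factor XBP1. Activated T cells grow and divide quickly, and both protein synthesis and chaperone expression are known to rise on activation.

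Libraries held between 3689831 and 5030522 counts, so that 3 counts equal 0.596 to 0.813 CPM, the count after TMM scaling to a common library size. Replicates of a group always differed by more than counting noise. Mitochondrial transcripts took between 6.48% and 7.67% of counts in HCME-sEV libraries and between 6.44% and 6.54% in LME-sEV libraries. The CD8 T-cell markers were abundant in every library, whereas of the markers of CD4 and regulatory T cells, Cd4 and Foxp3 did not exceed 0.61 CPM and Ikzf4 was between 23.2 and 29.5 CPM in all 7. In bulk RNA, fewer cells of a type and less RNA per cell cannot be told apart.

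A part of the chaperone transcripts was lower after LME-sEVs. In the quasi-likelihood test of edgeR (Benjamini-Hochberg over all tested genes), 16 of the 43 members fell (37.2%) and 0 rose at a false discovery rate (FDR) under 0.05. Across all tested genes, 5.21% fell and 3.75% rose, or 658 and 473 genes. Scaling by library size alone turned that balance to 465 that fell and 612 that rose, while 14 members fell and 0 rose. No member was higher by DESeq2 or limma-voom either, nor at an unadjusted p under 0.05, where 25 members were lower and 0 higher. Of all 12623 tested genes, 1548 were lower and 1316 higher at that p. The log2 fold change (LME-sEVs over HCME-sEVs) was below 0 in 38 members and above 0 in 5. Over all tested genes it was below 0 in 6126 and above 0 in 6497. The median was −0.21 over the members and 0.01 over all tested genes. Levels of the 2 groups did not overlap, with LME-sEVs lower, in 25 members, against 10.8% of all tested genes. The changes were small: 0 members passed a log2 fold change of 1 as well, which 1.28% of all tested genes did. Many members are abundant. Of the 37 members with a mean of at least 50 CPM, 15 fell, against 10.2% of the 3924 genes at that level.

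LME-sEV library 2 was the lowest of the 7 libraries in 23 members, and in 12 of the 16 that fell. Without it, 1 member was called, the disulfide isomerase Pdia3, while the number of calls over all genes dropped from 1131 to 391. Without LME-sEV library 3, 4 of the 22 cytosolic and mitochondrial members and 4 of the 21 ER members were called, in place of 10 and 6. The calls over all genes were then 458, against 1131. HCME-sEV library 1 was the highest of the 7 in 15 of the 22 cytosolic and mitochondrial members and in 5 of the 21 ER members. The summed level of the 43 members was 20858, 19708, 18761, and 19846 CPM in HCME-sEV libraries 1 to 4 and 17825, 16277, and 17147 CPM in LME-sEV libraries 1 to 3, without overlap. In an exact permutation test (two-sided) of each level over the 35 assignments of the libraries to groups, 14 of the 16 members reached the smallest p possible, 0.0286, and Stip1 and Hspe1 had p = 0.0571. These 16 had been called on the same libraries, so this is no separate evidence. Dnaja2, Cct8, Hyou1, Canx, and P4hb, which were not called, also reached p = 0.0286 in the permutation test. Below, levels are listed for HCME-sEV libraries 1 to 4 and then LME-sEV libraries 1 to 3.

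**Figure D1:**
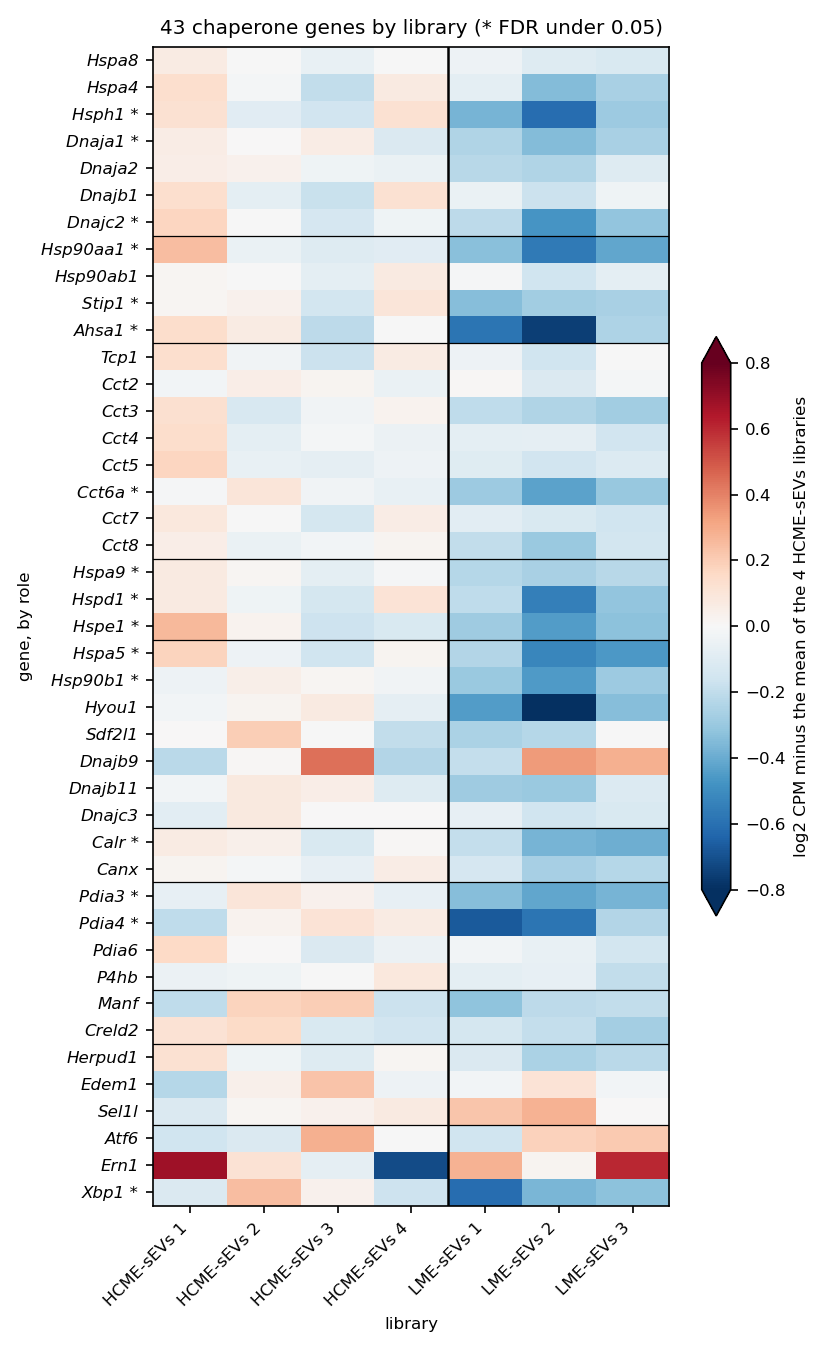
Level of each of the 43 members (rows, grouped by role, with lines between roles) in each library (columns), as log2 CPM minus the mean of the 4 HCME-sEV libraries; blue is lower and red is higher, colors stop at 0.8 on either side, and an asterisk marks the 16 members with an FDR under 0.05. Blue fills most of the 3 LME-sEV columns and is deepest in LME-sEV library 2, the lowest of the 7 in 23 members.

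Genes of ER chaperones are known to carry a response element in their promoters. In the 250 bases before each gene's RefSeq start (GRCm38.p6; 34 members had a window, 18 of the ER and 16 of the cytosol or mitochondria), 3 motifs were searched on both strands. They were the ER stress element (CCAAT and CCACG, 9 bases apart), the heat shock element (units of GAA, TTC, and GAA, each 2 bases apart), and the E-box CACGTG. Where TG follows the second part of the ER stress element, the letters hold an E-box too, which was not so in the promoters shown. The ER stress element was in 37 of 32851 windows (0.113%). It was in 7 members, all of the ER: Calr, Canx, Creld2, Dnajc3, Hsp90b1, Hspa5, and Pdia6. Of these 7, 3 fell and 4 were not called, and Pdia3, Pdia4, and Xbp1 fell without these letters in their windows. A heat shock element with these exact letters was in 153 windows (0.466%), among them those of Hspd1 and Hspe1, which start head to head and share the same stretch. Hspa8, Hsp90aa1, and Hsp90ab1 were among the members without a window, so their promoters were not searched. The E-box was in 1978 windows (6.02%), including those of Calr, Dnajb9, Hspd1, and Hsph1. A match of letters is a description of the sequence and not a measured binding site.

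The promoters of the 4 members with the smallest p-values among those that hold a motif are shown, so that the position of the letters can be seen. They are Hsp90b1 (chr10:86705445-86705694, minus strand), Hspa5 (chr2:34771840-34772089, plus strand), Hsph1 (chr5:149636316-149636565, minus strand), and Calr (chr8:84846932-84847181, minus strand). Each reads 5′ to 3′ along the gene and ends at the base before its RefSeq start. GENCODE vM21 places the start of these genes further upstream, so that the last 120 bases of the Hspa5 window, 65 of Hsp90b1, 61 of Hsph1, and 3 of Calr lie within the GENCODE gene. Capitals mark the ER stress element as its parts CCAAT and CCACG, or ATTGG and CGTGG where it lies on the opposite strand, and the E-box CACGTG.
Hsp90b1: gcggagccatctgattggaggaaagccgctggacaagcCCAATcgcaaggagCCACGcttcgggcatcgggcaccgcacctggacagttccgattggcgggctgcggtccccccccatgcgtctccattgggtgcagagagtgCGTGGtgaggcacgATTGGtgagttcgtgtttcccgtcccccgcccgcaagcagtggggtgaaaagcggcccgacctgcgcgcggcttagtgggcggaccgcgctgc
Hspa5: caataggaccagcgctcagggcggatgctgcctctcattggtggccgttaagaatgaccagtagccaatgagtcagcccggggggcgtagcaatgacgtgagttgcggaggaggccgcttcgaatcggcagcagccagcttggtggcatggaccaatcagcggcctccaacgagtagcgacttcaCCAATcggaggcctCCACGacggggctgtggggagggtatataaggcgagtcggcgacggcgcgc
Hsph1: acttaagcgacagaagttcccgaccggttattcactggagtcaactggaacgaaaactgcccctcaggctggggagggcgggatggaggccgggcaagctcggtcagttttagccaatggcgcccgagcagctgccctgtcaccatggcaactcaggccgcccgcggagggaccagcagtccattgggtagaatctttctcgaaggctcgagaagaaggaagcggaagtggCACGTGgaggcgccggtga
Calr: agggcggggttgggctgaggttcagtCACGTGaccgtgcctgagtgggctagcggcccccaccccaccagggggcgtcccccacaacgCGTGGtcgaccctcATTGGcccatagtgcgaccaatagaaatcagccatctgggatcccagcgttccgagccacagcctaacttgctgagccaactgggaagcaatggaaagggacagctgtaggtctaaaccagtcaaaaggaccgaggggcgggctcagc
Counted back from the RefSeq start, Hsp90b1 held 2 ER stress elements, from −212 to −194 and from −107 to −89. Hspa5 held 1, from −65 to −47. In Calr it lay from −162 to −144, with an E-box from −224 to −219. Of the 3 motifs searched, Hsph1, a cytosolic member, matched only the E-box, from −19 to −14. The search took exact letters only, so a heat shock element with a mismatch would have been missed. The letters of Hspa5 and Hsph1 thus lie inside the GENCODE gene, and those of Hsp90b1 and Calr lie before it.

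In the cytosolic HSP70 system, 3 cochaperones fell and the central HSP70 did not pass the test. Of the 7 members, Hsph1, Dnajc2, and Dnaja1 were lower, and all 7 log2 fold changes were below 0. Hsph1 (chr5:149614287-149636376) encodes HSP110, which exchanges the nucleotide of HSP70. Its level was 183, 158, 152, and 183 CPM after HCME-sEVs and 130.1, 110.2, and 137 CPM after LME-sEVs. Every LME-sEV library was below every HCME-sEV library, with a drop of 25.5% (log2 fold change −0.42 ± 0.095 SE, edgeR FDR = 0.00791). Dnajc2 (chr5:21757267-21785251), a J-domain protein that works on the ribosome, stood at 550.4, 485, 445, and 475 CPM against 422, 352, and 392 CPM. It fell by 20.6% (log2 fold change −0.33 ± 0.085 SE, edgeR FDR = 0.0174). Another annotated gene with a near-identical 3′ end held 32 counts, against 13109 for the gene. Dnaja1 (chr4:40722150-40737149), the J-domain partner of HSP70 for client proteins, was at 308, 296, 308, and 272 CPM against 249.9, 232, and 247 CPM. It fell by 17.9% (log2 fold change −0.29 ± 0.076 SE, edgeR FDR = 0.0224), and the call held in 11 of the 15 alternative analyses. Its exons overlap those of Smu1 on the opposite strand, with 3808 counts for Smu1.

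Hspa8, the constitutive HSP70 of the cell and the most abundant member of its system, had 994, 950.2, 913, and 949 CPM after HCME-sEVs and 923, 887, and 874 CPM after LME-sEVs. The groups overlapped, with a log2 fold change of −0.09 (95% interval −0.23 to 0.06, FDR = 0.494). Copies with near-identical 3′ ends, 7 in number, held 53 counts in all, against 27355 for Hspa8. The exchange factor Hspa4 (log2 fold change −0.23, 95% interval −0.41 to −0.05, FDR = 0.109), Dnaja2 (−0.19, −0.34 to −0.04, FDR = 0.121), and Dnajb1 (−0.09, −0.30 to 0.11, FDR = 0.628) were not called. Dnaja2 was nevertheless lower in all 3 LME-sEV libraries, at 312, 309, and 339 CPM, than in the 4 others, between 352 and 378 CPM.

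The HSP90 system held the member with the smallest FDR in the cytosol, Hsp90aa1 (chr12:110690605-110702728), which encodes the stress-inducible HSP90α. Its level was 2201, 1788, 1729, and 1741 CPM after HCME-sEVs. After LME-sEVs it was 1474, 1253, and 1394 CPM. HCME-sEV library 1 stood above the other 3 of its group, but the highest LME-sEV library was still below the lowest HCME-sEV library. The means were 1865 ± 226 CPM (SD, n = 4) and 1373 ± 112 CPM (SD, n = 3), a fall of 26.4% (log2 fold change −0.44 ± 0.090 SE, edgeR FDR = 0.00420). The constitutive paralog Hsp90ab1, which encodes HSP90β, was not called. It was at 4599.8, 4542, 4311, and 4799.9 CPM against 4522, 4089, and 4321 CPM, which overlap (log2 fold change −0.08, 95% interval −0.24 to 0.07, FDR = 0.558).

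Both cochaperones of HSP90 among the members fell. Ahsa1 (chr12:87266479-87273998), the activator of the HSP90 ATPase, was measured at 91.5, 86.9, 71.8, and 82.8 CPM against 55.2, 49.3, and 69.8 CPM. The gap between the groups was narrow, from 69.8 to 71.8 CPM, since LME-sEV library 3 came close to HCME-sEV library 3. The fall was 29.9% (log2 fold change −0.51 ± 0.11 SE, edgeR FDR = 0.00798), the steepest of the 22 cytosolic and mitochondrial members. A near-identical 3′ end of another annotated gene held 13 counts, against 2139 for Ahsa1. Stip1 (chr19:7020702-7039967), which hands clients from HSP70 to HSP90, was at 221, 223, 198, and 233 CPM against 172, 179.9, and 183 CPM. It fell by 18.5% (log2 fold change −0.29 ± 0.079 SE, edgeR FDR = 0.0233) without overlap, and this call was lost in 6 of the 15 alternative analyses.

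**Figure D2:**
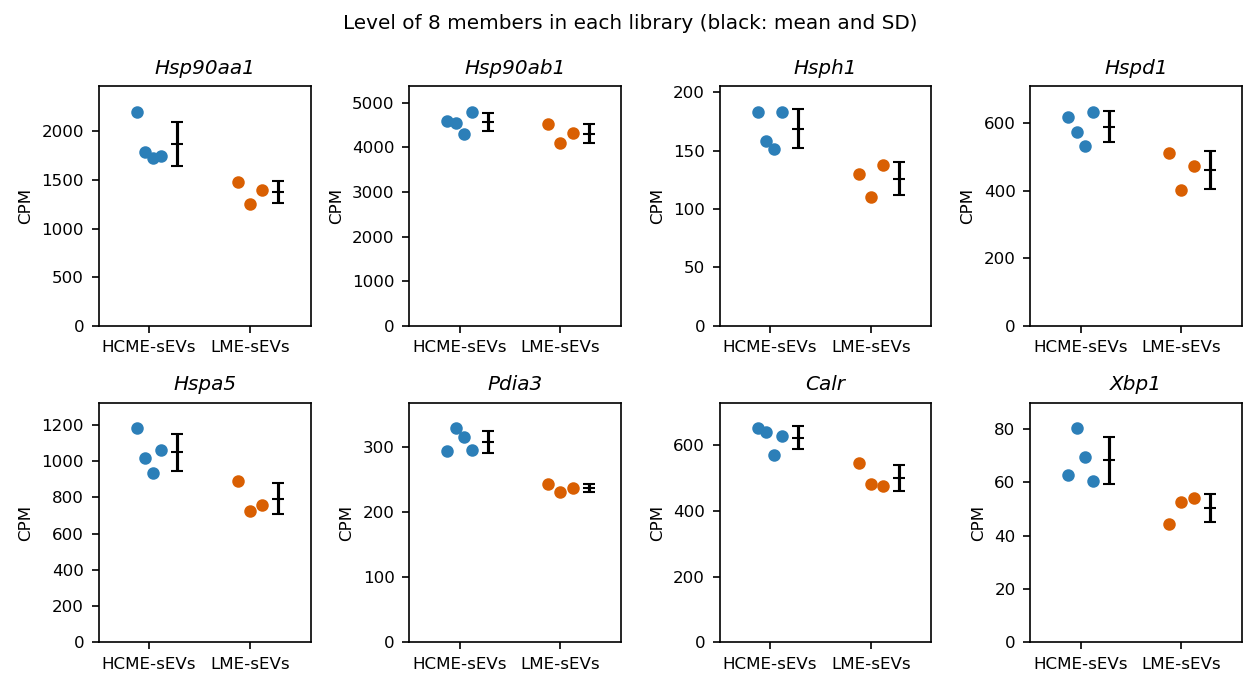
CPM (vertical axes, from 0) of 8 members in each library, with HCME-sEVs in blue (4 points) and LME-sEVs in orange (3 points); black bars give the mean and SD. Hsp90aa1 falls from a mean of 1865 to 1373 CPM without overlap, while Hsp90ab1 overlaps, and the other 6 members do not overlap.

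The ring of TRiC is built from 8 different subunits, of which 1 fell (12.5%). All 8 had a mean of at least 50 CPM, and 10.2% of the tested genes at that level fell, a similar share. Cct6a (chr5:129786998-129846371) was at 449.5, 483, 443, and 433 CPM after HCME-sEVs and 369, 336, and 366 CPM after LME-sEVs. The groups were well apart, and the level fell by 21.1% (log2 fold change −0.34 ± 0.074 SE, edgeR FDR = 0.00662). Its share of the summed TRiC transcripts was 11.4%, 13.1%, 12.3%, and 11.6% against 10.8%, 10.3%, and 10.8%, which also did not overlap. Its exons overlap those of Psph on the opposite strand, with 3301 counts for Psph, and whether counting used the strand is not given in the sources used here.

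The other 7 subunits had log2 fold changes between −0.24 and −0.04 and were not called. Cct3 was the nearest to the threshold, at 339, 284, 305, and 316 CPM against 269, 263, and 256 CPM (log2 fold change −0.24, 95% interval −0.41 to −0.08, FDR = 0.0543). Cct8 was at 648 ± 20.9 CPM (SD, n = 4) and 559 ± 28.4 CPM (SD, n = 3), without overlap (log2 fold change −0.21, 95% interval −0.36 to −0.06, FDR = 0.0697). Both were called by DESeq2, which found 3 of the 8 subunits lower. Cct5 did not overlap either, with 530.2, 452, 448, and 458 CPM against 441, 424, and 436 CPM, though the highest value came from HCME-sEV library 1 alone (log2 fold change −0.12, FDR = 0.366). Cct7 (−0.13, FDR = 0.338), Cct4 (−0.10, FDR = 0.464), Tcp1 (−0.07, FDR = 0.669), and Cct2 (−0.04, FDR = 0.808) overlapped between the groups. The 95% intervals of these 4 reached from −0.28 to 0.11, while that of Cct6a was −0.50 to −0.19, so they overlapped in part. Whether Cct6a differed from the other subunits was not tested.

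All 3 mitochondrial chaperones fell. Hspd1, encoding HSP60 (chr1:55077835-55088243), was at 618, 574, 533, and 634 CPM after HCME-sEVs and 511, 402, and 473 CPM after LME-sEVs. It fell by 21.7% (log2 fold change −0.35 ± 0.087 SE, edgeR FDR = 0.0142). Hspe1, encoding its lid HSP10 (chr1:55088132-55091307), was at 777, 663, 579.5, and 596 CPM against 533, 476, and 517 CPM. The fall was 22.2% (log2 fold change −0.36 ± 0.092 SE, edgeR FDR = 0.0165). These genes lie head to head on opposite strands with overlapping first exons, and their ratio within a library was 0.911 ± 0.114 (SD, n = 4) and 0.906 ± 0.0567 (SD, n = 3). Hspa9, the mitochondrial HSP70 that pulls proteins into the matrix, was at 603, 579, 545, and 571 CPM against 489.9, 480.0, and 492 CPM. Its spread was small, but so was its fall of 15.2% (log2 fold change −0.24 ± 0.071 SE, edgeR FDR = 0.0398), and 9 of the 15 alternatives lost the call.

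Of the 21 ER members, 6 fell and 0 rose, with a median log2 fold change of −0.21, beside 10 of 22 and −0.23 in the cytosol and mitochondria. Their summed level was 4829, 4806, 4581, and 4693 CPM after HCME-sEVs and 4112, 3792, and 3879.9 CPM after LME-sEVs. No HCME-sEV library stood apart in this sum, and LME-sEV library 2 was again the lowest.

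Hspa5 (chr2:34771970-34777547) encodes BiP, the HSP70 of the ER that also holds the stress sensors inactive. It was at 1180.2, 1017, 935, and 1061 CPM after HCME-sEVs and 888, 727, and 759 CPM after LME-sEVs. The groups did not overlap, and the fall was 24.6% (log2 fold change −0.41 ± 0.088 SE, edgeR FDR = 0.00640). Hsp90b1 (chr10:86690209-86705509), the HSP90 of the ER that folds integrins and Toll-like receptors, was at 669.9, 713, 698, and 677 CPM against 561, 504, and 564 CPM. Its HCME-sEV libraries lay close together, and it fell by 21.2% (log2 fold change −0.34 ± 0.073 SE, edgeR FDR = 0.00568). Both genes hold the ER stress element shown above. Exons of Hsp90b1 overlap 1810014B01Rik on the opposite strand, which held 307 counts, against 18422 for Hsp90b1.

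The steepest log2 fold change of all members was that of Hyou1, an exchange factor of BiP, which did not pass the threshold. It was at 14.4, 14.9, 15.4, and 13.9 CPM against 10.7, 7.62, and 11.6 CPM (log2 fold change −0.55, 95% interval −0.92 to −0.18, FDR = 0.0571), without overlap. The J-domain partners of BiP were not called: Dnajb11 had a log2 fold change of −0.22 (FDR = 0.133), Dnajc3 of −0.12 (FDR = 0.393), and Dnajb9 of 0.16 (FDR = 0.677). Sdf2l1, which works with Dnajb11, overlapped between the groups (log2 fold change −0.16, FDR = 0.405).

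Among the lectins, Calr (chr8:84841850-84846934) fell. It encodes calreticulin, which holds glycoproteins and MHC class I in the ER lumen. Levels were 651, 639, 571, and 626 CPM against 544, 479.8, and 474 CPM, a fall of 19.7% (log2 fold change −0.32 ± 0.077 SE, edgeR FDR = 0.0135). Its membrane-bound relative Canx was at 542, 528, 508, and 555 CPM against 485, 444, and 455 CPM. That gap, without overlap, fell short of the threshold (log2 fold change −0.21, 95% interval −0.36 to −0.06, FDR = 0.0754).

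Of the 4 disulfide isomerases, Pdia3 and Pdia4 fell. Pdia3 (chr2:121413775-121438687), the partner of calreticulin in folding glycoproteins and in loading MHC class I, had the smallest FDR of all members. It was at 294, 329, 315, and 295 CPM after HCME-sEVs and 243, 231, and 238 CPM after LME-sEVs. Within a group the libraries lay close together, at 308 ± 16.8 CPM (SD, n = 4) and 237 ± 6.17 CPM (SD, n = 3). The fall of 23.0% (log2 fold change −0.38 ± 0.075 SE, edgeR FDR = 0.00369) held in all 15 alternatives. Pdia4 (chr6:47796141-47813430), a relative with more thioredoxin-like domains, was at 49.0, 57.6, 60.9, and 59.2 CPM against 35.4, 37.6, and 47.9 CPM. It fell by 28.2% (log2 fold change −0.48 ± 0.12 SE, edgeR FDR = 0.0135), with only a small gap between the nearest libraries, 47.9 and 49.0 CPM. Pdia6 (−0.08, 95% interval −0.24 to 0.09, FDR = 0.616) and the founding member of the family P4hb (−0.12, −0.28 to 0.05, FDR = 0.412) were not called.

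Factors released from stressed cells and genes of ER-associated degradation were not called. Manf was at 128, 168, 169.6, and 132 CPM against 119, 128, and 129 CPM, which overlap (log2 fold change −0.25, 95% interval −0.46 to −0.04, FDR = 0.133). An exon of it overlaps Rbm15b on the same strand, so reads there may be split. Creld2 was at 26.7 ± 2.91 CPM (SD, n = 4) and 23.2 ± 1.06 CPM (SD, n = 3) (log2 fold change −0.21, FDR = 0.359). Herpud1, which organizes the degradation complex, was at 149, 134, 127, and 138 CPM against 127, 115, and 118 CPM (log2 fold change −0.20, FDR = 0.154). Sel1l, the scaffold of the ubiquitin ligase, leaned the other way, at 79.7, 87.1, 88.3, and 90.7 CPM against 101, 105, and 86.6 CPM (log2 fold change 0.17, 95% interval −0.02 to 0.36, FDR = 0.290). Edem1, which targets glycoproteins for degradation, was at 139.6 ± 18.5 CPM (SD, n = 4) and 141 ± 7.52 CPM (SD, n = 3).

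Of the stress sensors and their factor, Xbp1 fell and the other two were not called. Xbp1 (chr11:5520659-5525893) encodes the transcription factor whose RNA is spliced by IRE1. Levels were 62.7, 80.3, 69.4, and 60.6 CPM against 44.5, 52.6, and 54.1 CPM, without overlap. The fall was 25.7% (log2 fold change −0.43 ± 0.11 SE, edgeR FDR = 0.0194). Counts at the 3′ end include the spliced and the unspliced form alike. Ern1, which encodes IRE1, had the lowest level of all members, at 6.72, 4.55, 3.99, and 2.55 CPM against 5.09, 4.26, and 6.38 CPM (log2 fold change 0.25, 95% interval −0.40 to 0.89, FDR = 0.700). Atf6 was at 25.2, 26.0, 34.3, and 28.1 CPM against 25.2, 32.0, and 32.7 CPM (log2 fold change 0.09, 95% interval −0.19 to 0.37, FDR = 0.756).

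**Figure D3:**
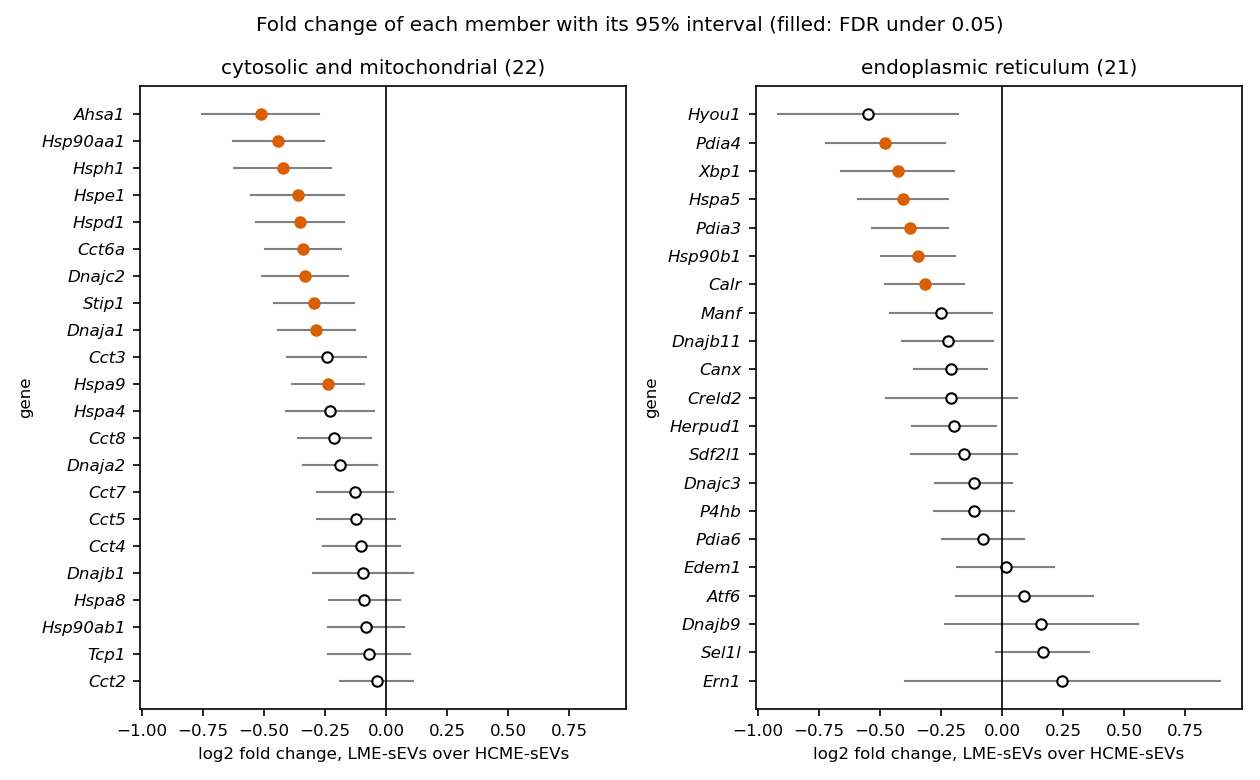
Log2 fold change of each member (horizontal axis, LME-sEVs over HCME-sEVs) with its 95% interval from edgeR, for the 22 cytosolic and mitochondrial members (left) and the 21 ER members (right); filled points have an FDR under 0.05. All 22 points on the left lie below 0, and 5 of the 21 on the right lie above it, each with an interval that includes 0.

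To compare related members without the effect of scaling, 5 ratios of transcript levels within a library were tested. The test was an exact permutation (two-sided) over the 35 assignments of the libraries to groups, whose smallest p is 0.0286. Hsp90aa1, Hspa5, Hsp90b1, and Calr had been called lower on the same libraries, and Hsp90ab1, Hspa8, and Canx had not. Lower ratios of these pairs therefore repeat those calls and are no separate evidence. Hsp90aa1 over Hsp90ab1 was 0.478, 0.394, 0.401, and 0.363 after HCME-sEVs and 0.326, 0.306, and 0.323 after LME-sEVs. The ratio was lower in all 3 LME-sEV libraries (exact permutation p = 0.0571, adjusted over the 5 ratios 0.0952). Hspa5 over Hspa8, the HSP70 of the ER over that of the cytosol, was 1.10 ± 0.0695 (SD, n = 4) against 0.883 ± 0.0727 (SD, n = 3), without overlap (exact permutation p = 0.0286, adjusted 0.0714). Hsp90b1 over Hsp90ab1 was 0.151 ± 0.00971 against 0.126 ± 0.00400, also without overlap (exact permutation p = 0.0286, adjusted 0.0714). The ratio of Calr over Canx was 1.17 ± 0.0468 against 1.08 ± 0.0399 (exact permutation p = 0.114, adjusted 0.143), and that of Hspd1 over Hspe1 overlapped (exact permutation p = 1). After adjustment 0 of the 5 ratios passed 0.05, for which at least 3 would have to be at the smallest p.

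**Figure D4:**
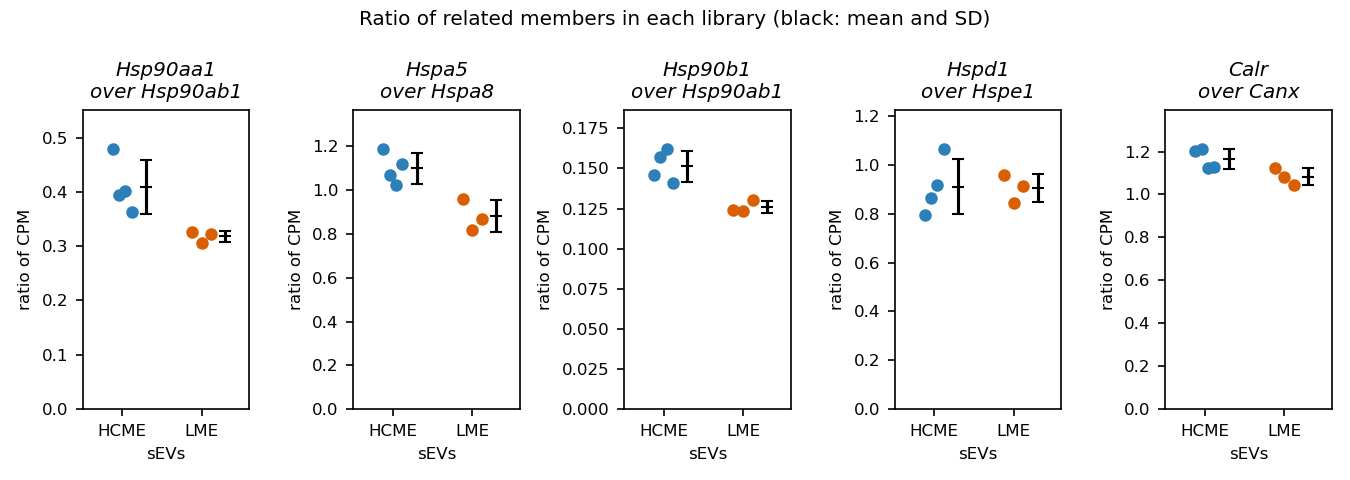
Ratio of the CPM of related members (vertical axes, from 0) within each library, with HCME-sEVs in blue and LME-sEVs in orange; black bars give the mean and SD. The ratios of Hsp90aa1 and Hsp90b1 over Hsp90ab1 and of Hspa5 over Hspa8 are lower in all 3 LME-sEV libraries, and Hspd1 over Hspe1 overlaps.

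Genes of protein folding beyond the members were read from the same fit in 7 lists. For each list, the shares over all tested genes are 5.21% lower and 3.75% higher. Of 39 other cytosolic chaperones and cochaperones tested, 7 fell (17.9%) and 3 rose, with a median log2 fold change of −0.11. Genes that serve HSP90 were on both sides. Hspbp1, an exchange factor of HSP70, was at 118, 103, 86.7, and 114 CPM against 70.3, 80.0, and 61.8 CPM (log2 fold change −0.58, edgeR FDR = 0.00256). Ptges3, the HSP90 cochaperone p23, was at 393, 393, 377, and 361 CPM against 295, 279, and 307 CPM (log2 fold change −0.38, edgeR FDR = 0.00327). The HSP90-bound isomerase Ppid fell as well (log2 fold change −0.36, FDR = 0.00638), whereas Fkbp5, another isomerase of HSP90 and a target of the glucocorticoid receptor, rose. Fkbp5 was at 78.8, 85.9, 77.1, and 92.6 CPM against 112, 114, and 131 CPM (log2 fold change 0.51, edgeR FDR = 0.00156).

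Among 11 heat shock factors and heat-inducible genes, 1 fell, Chordc1 (log2 fold change −0.28, FDR = 0.0430), and 1 rose, Dnajb4 (0.52, FDR = 0.0209), beside 5.21% lower and 3.75% higher over all tested genes. The groups overlapped for Chordc1, and its call held in 8 of the 15 alternatives, that of Dnajb4 in 12. Hsf1, the factor that drives them, was not called (−0.18, 95% interval −0.51 to 0.15, FDR = 0.552). Of 12 prefoldin subunits and TRiC cofactors, 0 were called by edgeR, 0 by DESeq2, and 0 by limma-voom, with 3 lower at an unadjusted p under 0.05. Of 16 other mitochondrial chaperones and proteases, the protease Yme1l1 fell (−0.29, FDR = 0.0277) and Hscb, a J-domain protein of iron-sulfur assembly, rose (0.42, FDR = 0.0112). The call of Yme1l1 held in 9 of the 15 alternatives and that of Hscb in 14.

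In the ER, 3 genes of the lists of folding and degradation were called. The share that fell was 2.7% in the folding list and 5% in the degradation list, beside 5.21% of all tested genes. Of 37 other genes of ER folding and glycan trimming, the glucosidase Mogs fell (log2 fold change −0.35, FDR = 0.0233) and the isomerase Pdia5 rose (1.40, FDR = 0.00640), with a median of −0.02 over the list. The call of Mogs held in 11 of the 15 alternatives and that of Pdia5 in all 15. Pdia5 went against Pdia3 and Pdia4, at 1.44, 3.28, 2.66, and 3.02 CPM against 7.51, 5.6, and 7.54 CPM, on 134 counts in all libraries together. Of 20 other genes of ER-associated degradation, Selenos fell (−0.34, FDR = 0.0141).

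Of 22 other genes of the unfolded protein response, 4 fell (18.2%) and 1 rose, beside 5.21% and 3.75% of all tested genes. Atf4, the factor translated when PERK or its relatives phosphorylate eIF2α, was at 625, 544, 483, and 569 CPM against 461, 385, and 377 CPM. The groups did not overlap (log2 fold change −0.45 ± 0.091 SE, edgeR FDR = 0.00430). The transcription factors Atf3 (−1.0, FDR = 0.00174), Atf5 (−1.04, FDR = 0.00723), and the pseudokinase gene Trib3 (−0.50, FDR = 0.0268) fell too, with mean levels of 17.8, 10.6, and 24.4 CPM after HCME-sEVs. Atf5 shares exon sequence with Nup62 on the opposite strand, which held 4784 counts against 241 for Atf5. Ddit3, which encodes CHOP, was not called (0.32, 95% interval −0.01 to 0.64, FDR = 0.240). Neither were Chac1 (−0.88, FDR = 0.106) and Ppp1r15a (−0.35, FDR = 0.341), both named here after their values were seen. Eif2ak3, which encodes PERK itself, rose, from 19.4 ± 4.27 CPM (SD, n = 4) up to 30.3 ± 2.84 CPM (SD, n = 3; log2 fold change 0.66, edgeR FDR = 0.00929).

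**Figure D5:**
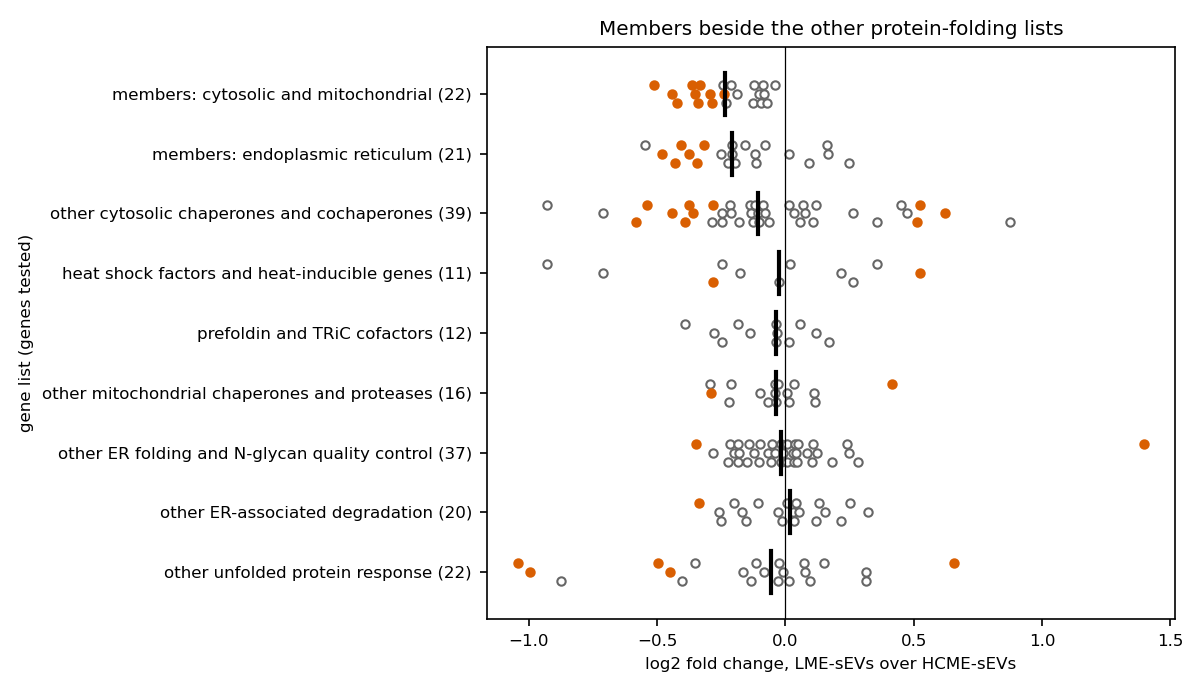
Log2 fold change (horizontal axis, LME-sEVs over HCME-sEVs) of each tested gene in the members and in 7 other lists of protein-folding genes (rows, with the number of genes tested; Dnajb4, Chordc1, and others may stand in more than 1 list); filled points have an FDR under 0.05, and black bars are medians. The bars of both member rows lie at −0.23 and −0.21, and those of the other rows between −0.11 and 0.02.

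Transcripts of other cells moved with the groups in part. Of the 8 CD8 T-cell markers, 2 rose by edgeR and by limma-voom (Cd3e and Cd3g) and 1 by DESeq2, and their summed level was between 2685 and 2779.7 CPM after HCME-sEVs and between 2823 and 3125 CPM after LME-sEVs. Plasma cells are known to be rich in ER chaperones. Of their 3 tested markers, Ighm and Igkc rose by all 3 tools, while Mzb1, Tnfrsf17, and Iglv1 were at 0 in all 7 libraries. Summed over 8 plasma-cell markers, the level was between 228 and 269.8 CPM after HCME-sEVs and between 310.0 and 339 CPM after LME-sEVs, nearly all of it Ighm. Of 4 tested B-cell markers, 0 were called by edgeR, DESeq2, or limma-voom, and 0 had an unadjusted p under 0.05, while Cd79a was under 1 CPM in every library. In all 7 libraries, Cr2 was between 7.07 and 14.5 CPM, Ebf1 between 3.03 and 6.17 CPM, and Cd79b between 1.86 and 5.56 CPM. Of basophil, mast-cell, and eosinophil markers, 3 of 6 tested rose by edgeR and limma-voom and 0 by DESeq2, which gave 1 of the 3, Prg2, no adjusted p, and the sum was between 6.24 and 35.6 CPM against 30.1 to 47.9 CPM. Of erythroid and platelet markers, 3 of 7 rose by edgeR and limma-voom and 0 by DESeq2, and the sum was between 74.4 and 182 CPM against 157 to 204 CPM. Myeloid markers (1 tested, 0 called by edgeR, DESeq2, or limma-voom, 1 at an unadjusted p under 0.05) summed to between 2.78 and 5.28 CPM after HCME-sEVs and between 6.76 and 8.06 CPM after LME-sEVs, without overlap. Among them, Itgam had 0, 0, 0, and 1 counts against 6, 8, and 6. The part of these cells in the level of the members was not tested.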

How the data were processed

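Per the labels and methods, the authors made 3′ libraries with the QuantSeq kit and unique molecular identifiers, trimmed reads with cutadapt 2.10, mapped them to GRCm38 with STAR 2.5.3a, collapsed copies with UMI-tools 1.0.0, and used featureCounts (Subread 2.0.0) for counting. The deposited values are whole-number counts per gene symbol, with neither normalization nor filter. A count stands for 1 captured molecule, so gene length does not enter. The annotation release and strand setting are not given in the sources used here.

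Groups came from the sample titles. Genes averaging 5 counts or more per library (12623 of 55367) were scaled by TMM. They were tested with edgeR 4.0.16 (glmQLFit, glmQLFTest) in R 4.3.3, with Benjamini-Hochberg adjustment over all tested genes and no covariate. The study's cutoff of 1 on the log2 fold change was counted apart. Levels are TMM-scaled CPM, and log2 CPM used a prior count of 2. Counting error covers neither culture nor library preparation. The test was first tested on simulated data with changes larger than that of any member. It therefore does not show how well changes as small as these are found. Members and gene lists were chosen with earlier results of these data known. Named were all 43 members, within each role those with an FDR under 0.05 and the 2 with the smallest p with every library, and up to 4 genes with an FDR under 0.05 per other list, plus Hsf1, Eif2ak3, Atf4, and Ddit3. Alternatives were other filters, scalings, DESeq2 1.42.0, limma-voom 3.58.1, the replicate number as a block, FDR under 0.01, and leaving out each library. All 43 members matched GENCODE vM21 on GRCm38 by symbol, and copies of their 3′ ends were sought with blast 2.17.0 (last 300 bases, 95% identity over at least 200 bases). Promoters are from RefSeq. Of the B-cell markers, 1 is not reported here.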

Additional observations from a re-analysis of the deposited data

Results flagged for a closer look

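Among 65 results whose 4 HCME-sEV values were compared, 2 had a library set apart from the rest, where chance alone gives about 1 in 20, or 3.25. In Hsp90aa1, HCME-sEV library 1 was the highest, at 2201 CPM against 1729 to 1788 CPM in the other 3, and its gap to the nearest took 0.874 of the whole range. In Cct5 the same library was the highest, at 530.2 CPM against 448 to 458 CPM, with a gap of 0.875 of the range. Without HCME-sEV library 1, the log2 fold change of Hsp90aa1 was −0.35 with an FDR of 0.00263, and that of Cct5 was −0.06 with an FDR of 0.669.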

How the results depend on the processing

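The members that were called lower kept their direction in all 15 alternatives, and 0 members were called higher in any of them. Without 1 library, the calls lay between 0 and 11 for the cytosolic and mitochondrial members (10 in the analysis above), between 1 and 7 for the ER members (6), and between 0 and 1 for the TRiC subunits (1), with the lowest counts without LME-sEV library 2. That analysis compares 2 libraries with 4. Over all genes, the calls without 1 library lay between 391 and 1305, against 1131 with all 7. DESeq2 called 3 TRiC subunits lower, and 562 of all 12623 tested genes. At an FDR under 0.01, 4 cytosolic and mitochondrial members and 3 ER members were lower. The share over all tested genes at that threshold is not given here, so these 2 counts cannot be set beside it. Pdia3 passed in all 15 alternatives, and Hsph1, Hsp90aa1, Ahsa1, Cct6a, and Hsp90b1 in all but the analysis without LME-sEV library 2, in which their FDR was between 0.0525 and 0.0810. Dnajc2, Hspd1, Hspe1, Hspa5, and Pdia4 passed in 13 alternatives. Calr and Xbp1 passed in 12, Dnaja1 in 11, Stip1 in 9, and Hspa9 in 6. Medians of log2 fold change lay between −0.26 and −0.19 for cytosolic and mitochondrial members and between −0.22 and −0.16 for ER members. Directions near 0 turned in 2 members: Cct2 to 0.0055 with library size only, and Edem1, which lay between −0.057 and 0.096 without 1 library. Why the calls moved was not tested.

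Libraries that share a replicate number in both groups were not shown to be pairs. Correlations of their deviations from the group means were 0.0721, 0.155, and 0.0267, and not every library correlated best with its own number. With the replicate number as a block (replicate block), 2 TRiC subunits, 11 cytosolic and mitochondrial members, and 8 ER members were lower, and 1454 genes were called in all, against 1131. At these depths, members of low level such as Ern1 and Hyou1 have wide intervals.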
